A study of Mus musculus with 15 samples.

Results

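The genes described here are 10 mRNAs of the interferon gamma response: 8 interferon-inducible GTPases (Gbp2, Gbp3, Gbp6, Gbp7, Gbp9, Igtp, Irgm1 and Irgm2) and the 2 subunits of the interferon gamma receptor (Ifngr1 and Ifngr2). They were found by gene symbol, and all 10 were listed among the 11262 genes of the table of naïve and TCR activated cells and the 11211 genes of the table of cytotoxic T cells (CTL). The family was chosen by a measured value: Gbp2 mRNA was higher, and Ifng mRNA lower, in TCR activated cells given a PI3K p110δ inhibitor, and the question was whether the relatives of Gbp2 moved with it. The values of the 10 genes and of Ifng under the inhibitor are therefore a description and carry no test, whereas the IL-2 comparison in CTL used other libraries and was tested.

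All cells were CD8+ T cells of P14 mice, which carry a transgenic TCR for the gp33–41 peptide of a viral glycoprotein. Naïve cells (naive) were sorted directly from lymph nodes as DAPI-, TCRβ+, CD8+, CD62L high and CD44 low. TCR cells were activated for 24 h with gp33–41 (100 ng/ml), IL-2 (20 ng/ml), IL-12 (2 ng/ml) and the vehicle DMSO, and PI3Kdi cells were activated in the same way with 10 µM IC87114, an inhibitor selective for p110δ; both were sorted as DAPI- CD8+. Each of 3 replicates was a lymph node pool of 3 female mice aged 9 to 13 weeks, divided over these 3 conditions. CTL had been activated for 48 h, expanded in 20 ng/ml IL-2 for 4 further days, washed, and then kept in 20 ng/ml IL-2 or deprived of it for 24 h, with 3 replicates each. The treatment labels of IL-2 replicates 2 and 3 name IL3 and IL4 where replicate 1 names IL-2, so these 3 were grouped by their titles, and the IL-2 comparison rests on that. The age and pooling of the mice behind the CTL were not stated.

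Interferon gamma signals through a receptor with a ligand-binding chain, IFNGR1, and an accessory chain, IFNGR2, which bring in the kinases JAK1 and JAK2. Signals from these kinases reach promoters that hold GAS elements and induce IRF1, and IRF1 and related factors bind interferon-stimulated response elements (ISRE). Guanylate-binding proteins (GBP) and immunity-related GTPases (IRG) are classical products of this response and attack vacuoles that hold intracellular pathogens. IGTP, IRGM1 and IRGM2 are the regulatory IRG proteins, which keep effector IRG proteins such as IIGP1 and TGTP inactive on the membranes of the cell itself. Type I interferons act through a separate receptor and a complex with IRF9, which also binds ISRE. CD8+ T cells both secrete interferon gamma and respond to it.

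The promoter of each family member was read to show what the GTPase genes share in sequence. RefSeq start sites (GRCm38.p6) gave a window of 250 bases before to 50 bases after the start for 8 of the 10 genes; Gbp6 and Gbp9 had no window here. The core of the ISRE, taken as GAAA, any 2 bases and GAAA again, was searched on both strands. It was present in a window of all 6 GTPase genes that had one and in neither receptor gene. A second window of Gbp3 held no match. Of all 32851 windows, counted by window and not by gene, 3.44% held the core. The stretches are given 5′ to 3′ on the strand of each gene, with the matching bases in capitals.
Gbp2: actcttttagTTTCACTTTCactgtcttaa
Gbp3: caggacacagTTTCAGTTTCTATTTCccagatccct
Gbp7: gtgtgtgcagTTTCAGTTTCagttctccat
Igtp: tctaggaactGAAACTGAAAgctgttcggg
Irgm1: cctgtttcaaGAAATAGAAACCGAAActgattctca
Irgm2: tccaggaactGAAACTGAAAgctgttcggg

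The Gbp2 stretch lies at chr3:142620594-142620623 on the plus strand, with its match at -59 to -50 from the start. The Gbp3 stretch (chr3:142559989-142560024, plus strand) and the Irgm1 stretch (chr11:48871425-48871460, minus strand) each hold 2 overlapping matches, at -45 to -30 and -30 to -15. The Gbp7 match lies at -53 to -44 (chr3:142530273-142530302, plus strand). The stretches of the neighbouring genes Igtp (chr11:58199512-58199541) and Irgm2 (chr11:58214903-58214932), both on the plus strand, differ at 1 of 30 bases, with matches at -34 to -25 and -64 to -55. The GAS motif TTCNNNGAA was found 2 times in Gbp7 and 1 time each in Igtp and Irgm2, against 8.30% of all windows, and none of these overlapped an ISRE. The FOXO motif GTAAACA was found in Gbp3 alone among the 8 genes, against 3.65% of all windows. A match describes these letters and is not a binding site.

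The genes lie on 5 chromosomes of the mouse genome (GRCm38, which is mm10). Gbp2 (Entrez 14469, chr3:142620663-142638008), Gbp3 (55932, chr3:142560016-142573213) and Gbp7 (229900, chr3:142530336-142550151) form a run on the plus strand of chromosome 3. Gbp6 (100702, chr5:105270702-105295871) and Gbp9 (236573, chr5:105076464-105110357) lie on the minus strand of chromosome 5. Igtp (16145, chr11:58199556-58207592) and Irgm2 (54396, chr11:58214977-58222783) are adjacent on the plus strand of chromosome 11, and Irgm1 (15944, chr11:48865245-48871420) is farther off on the minus strand. Ifngr1 (15979, chr10:19591949-19610229) and Ifngr2 (15980, chr16:91547059-91564007) are on the plus strands of chromosomes 10 and 16. Reads of near-identical copies or overlapping genes can be split between genes. Of the distinct 75-base words of the Gbp6 transcripts, 67.3% also occurred in other genes, mainly Gm43302 (61.7%) and Gbp10 (40.4%). These words came from GENCODE transcripts, not from the RefSeq annotation used for the counting. The Gbp6 values are for that reason uncertain. The same share was 11.3% for Gbp7, 7.80% for Igtp, 4.78% for Irgm2, 3.61% for Gbp9, 2.06% for Gbp3, 0.95% for Gbp2 and 0 for Irgm1, Ifngr1 and Ifngr2. Exons of Gbp6 overlap Gm43302, a gene on the same strand, so words shared by these genes need not come from a separate copy. Exons of Gbp7 overlap the pseudogene Gm43802, exons of Gbp9 overlap Gbp4 and Gbp8, and exons of Igtp overlap Irgm2.

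Levels are given as FPKM, fragments scaled to exon length and library size, as the authors calculated them. Library read totals were not given and the depth is unknown; the lowest level of any of the 10 genes in any library was 2.25 FPKM, against values rounded to 0.01. The 2 tables were normalised separately, so levels are set side by side across them but not tested. The 5 CD8 T cell markers summed to 3189 to 3482 FPKM in naive, 637 to 685 in TCR and 811 to 953 in PI3Kdi cells, and to 971 to 1042 in CTL with IL-2 and 1876 to 2069 without. Of 11 myeloid and dendritic cell markers only Itgam and Cd68 were listed, with sums of 2.71 to 2.98 in naive, 1.85 to 4.97 in TCR and 3.56 to 4.57 in PI3Kdi cells; Lyz2, Csf1r, Adgre1 and Cd14 were not among the listed genes. In bulk RNA, fewer cells of a type and less RNA per cell cannot be told apart.

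**Figure D1:**
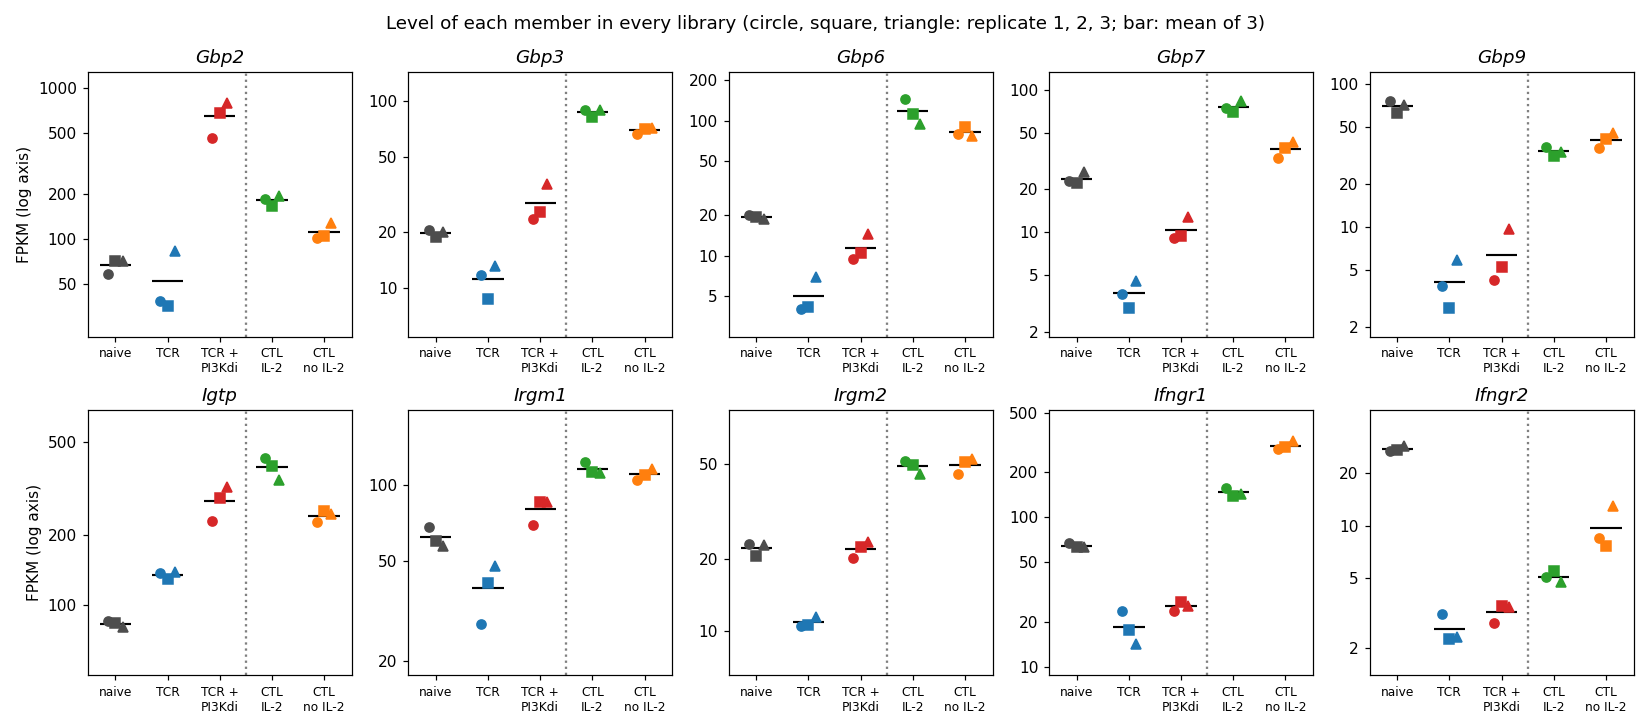
FPKM (log axis) of each of the 10 genes in every library, with naive, TCR and TCR + PI3Kdi left of the dotted line and CTL with and without IL-2, from the separately normalised table, to its right. Circles, squares and triangles are replicates 1, 2 and 3 and bars are means of 3. Gbp2 sits at 469 to 799 FPKM in PI3Kdi cells and at 36.02 to 193 FPKM in every other library.

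Most of the family was lower in TCR cells than in naive cells, while Ifng was higher. TCR cells also had 24 h of culture with IL-2 and IL-12, which naive cells did not. These cannot be told apart from the peptide here, and TCR activation names the whole comparison. Ifng, the gene of the cytokine itself, averaged 0.0867 ± 0.0379 FPKM (SD, n = 3) in naive cells and 2179 ± 199 FPKM in TCR cells. Of the 8 GTPases, 4 were called lower (Gbp6, Gbp7, Gbp9 and Irgm2), none was called higher, and both receptor subunits were called lower. A gene was called when limma gave an adjusted p under 0.05 over all genes and a change over 2-fold on the log2(FPKM + 0.1) scale. Over all genes 25.0% were called higher and 23.7% lower, so the 6 of 10 called lower stand against that background, in a comparison that shares its TCR libraries with the one that picked the family.

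Gbp2, a guanylate-binding protein, had 59.1, 71.4 and 71.9 FPKM in naive replicates 1, 2 and 3 and 38.7, 36.02 and 82.9 FPKM in TCR cells. TCR replicate 3 was above every naive library and the other 2 were below, so the groups overlapped. The log2 change was -0.46 ± 0.28 (SE, adjusted p = 0.15), and it was -0.39 (adjusted p = 0.30), -0.20 (adjusted p = 0.64) and -0.80 (adjusted p = 0.0034) without replicates 1, 2 and 3. Gbp3, its chromosome 3 neighbour, had 20.5, 18.8 and 19.8 FPKM in naive and 11.8, 8.75 and 13.1 FPKM in TCR cells. The Gbp3 groups did not overlap, and the log2 change of -0.83 ± 0.17 (adjusted p = 0.00095) was under 2-fold.

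Gbp7 had 23.0, 22.1 and 26.4 FPKM in naive and 3.66, 2.94 and 4.55 FPKM in TCR cells, a log2 change of -2.67 ± 0.17 (adjusted p = 6.2e-08). Gbp6 had 20.1, 19.4 and 18.7 FPKM in naive and 4.0, 4.19 and 6.90 FPKM in TCR cells, a log2 change of -1.97 ± 0.21 (adjusted p = 4e-06). Gbp9 had 75.6, 62.0 and 71.2 FPKM in naive and 3.84, 2.72 and 5.81 FPKM in TCR cells, a log2 change of -4.11 ± 0.30 (adjusted p = 1.7e-07). Every TCR library of these 3 genes was below every naive library, and Gbp9 went from a level like that of Gbp2 to one like that of Gbp7.

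The 3 regulatory IRG genes did not move together. Igtp had 85.4, 83.6 and 80.4 FPKM in naive and 138, 129 and 139 FPKM in TCR cells, and was higher in all 3 pools (log2 change 0.70 ± 0.11, adjusted p = 0.00011), under 2-fold. Irgm1 had 68.5, 60.1 and 57.6 FPKM in naive and 28.3, 40.9 and 47.6 FPKM in TCR cells, a fall of under 2-fold (log2 change -0.70 ± 0.17, adjusted p = 0.0024; -0.41 without replicate 1). Irgm2, whose promoter stretch matches that of Igtp but for 1 base, had 23.1, 20.5 and 22.9 FPKM in naive and 10.4, 10.6 and 11.5 FPKM in TCR cells. The log2 change of Irgm2 was -1.03 ± 0.10 (adjusted p = 1.3e-06), close to the 2-fold limit, and without replicate 1 it was -0.97 and no longer called. Igtp was the only one of the 10 genes with an adjusted p under 0.05 and a higher level, against 8 with a lower level; over all genes 80.8% passed that test in either direction.

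Both receptor chains were lower in TCR cells than in naive cells. Ifngr1 had 67.5, 63.5 and 62.9 FPKM in naive and 23.8, 17.6 and 14.2 FPKM in TCR cells, a log2 change of -1.83 ± 0.15 (adjusted p = 5.4e-07). Ifngr2 had 26.7, 26.9 and 28.4 FPKM in naive and 3.15, 2.25 and 2.31 FPKM in TCR cells, a log2 change of -3.38 ± 0.15 (adjusted p = 3e-09). The ratio of Ifngr1 to Ifngr2 FPKM was 2.37 ± 0.158 in naive and 7.17 ± 0.912 in TCR cells (SD, n = 3), a difference that was not tested. Groups did not overlap for 9 of the 10 genes, against 80.7% of all genes.

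With the p110δ inhibitor, Gbp2 stood far above the rest of its family. Gbp2 had 469, 683 and 799 FPKM in PI3Kdi replicates 1, 2 and 3, which is 12.1, 19.0 and 9.64 times the TCR library of the same pool. The log2 difference of 3.70 ± 0.28 was at rank 3 from the highest among all 11262 genes. Ifng had 30.9, 27.5 and 38.8 FPKM in PI3Kdi cells and 1950, 2290 and 2299 FPKM in TCR cells, a log2 difference of -6.08 ± 0.16 at rank 11260. These values picked the family and are given without a test.

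The other GTPases were higher too, by far less. Gbp7 had 9.13, 9.46 and 12.7 FPKM (log2 difference 1.47 ± 0.17) and Gbp3 23.5, 25.4 and 36.1 FPKM (1.33 ± 0.17). Gbp6 had 9.40, 10.5 and 14.5 FPKM (1.19 ± 0.21). In each of these 3 genes the lowest PI3Kdi library was above the highest TCR library, and the ratio within a pool was 2.00 to 3.22. Gbp9 had 4.22, 5.22 and 9.62 FPKM, a log2 difference of 0.59 ± 0.30, and its groups overlapped.

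Among the IRG genes, Igtp had 230, 289 and 322 FPKM in PI3Kdi cells (log2 difference 1.04 ± 0.11). Irgm1 had 69.5, 85.8 and 86.0 FPKM (1.07 ± 0.17), and Irgm2 had 20.2, 22.4 and 23.5 FPKM (1.01 ± 0.10). The 3 genes thus differed from TCR cells by nearly the same factor, close to 2, with no overlap. Ifngr1 had 23.6, 27.0 and 25.6 FPKM (0.48 ± 0.15) and Ifngr2 had 2.78, 3.49 and 3.42 FPKM (0.33 ± 0.15). In both receptor genes replicate 1 was lower with the inhibitor than without, the other 2 pools were higher, and the groups overlapped.

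In counts, 7 of the 10 genes were past 2-fold higher, where 3.25% of all genes were, and 0 were past 2-fold lower, where 2.42% were. Those 7, all GTPases, were also the genes whose every PI3Kdi library was above every TCR library, as in 18.1% of all genes. All 8 GTPases were higher in each pool, against 27.5% of all genes. Of the GTPases past 2-fold, Irgm2 was the closest to the line (log2 difference 1.01), and Gbp9 alone was not past it (0.59). Ranked by log2 difference among all genes, Gbp2 was at 3, Gbp7 at 137, Gbp3 at 189, Gbp6 at 246, Irgm1 at 306, Igtp at 333, Irgm2 at 354, Gbp9 at 920, Ifngr1 at 1254 and Ifngr2 at 1949. Since the family was chosen on this contrast, nothing is read from these counts.

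**Figure D2:**
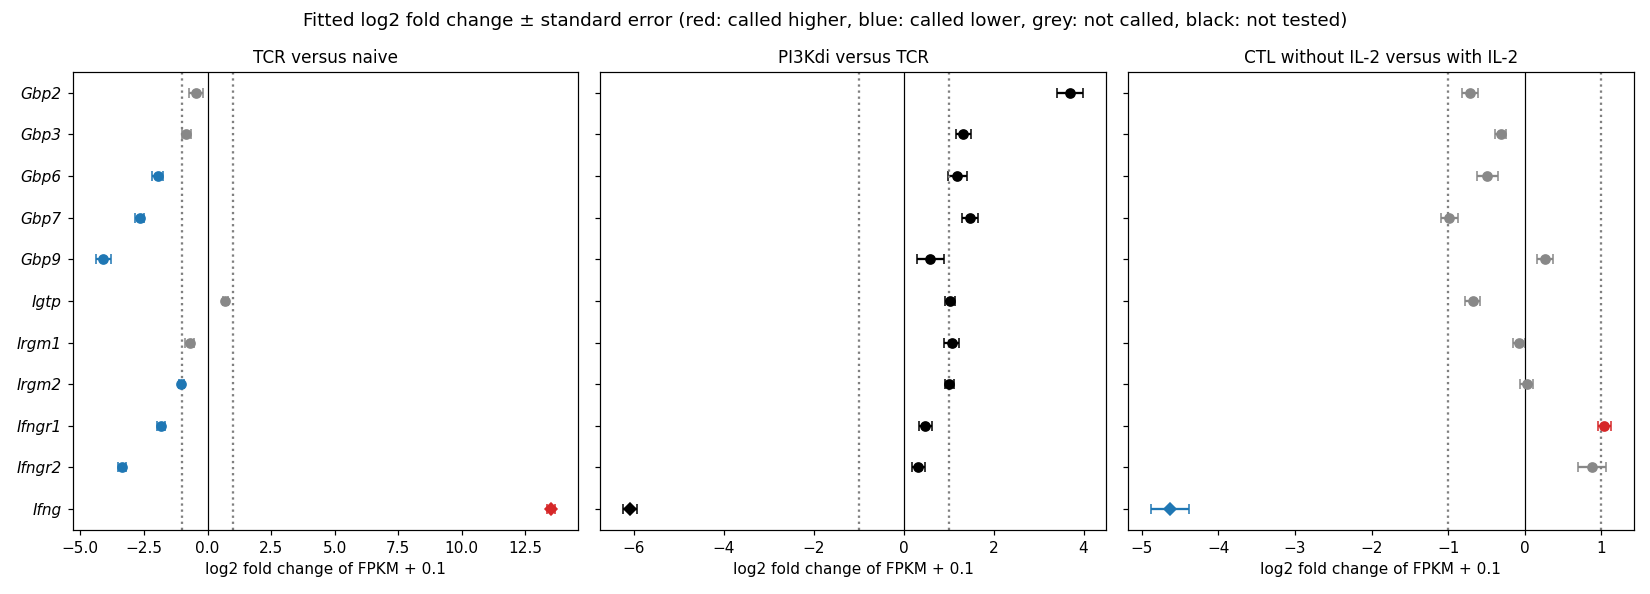
Log2 fold change of FPKM + 0.1 (points) with its standard error (bars) for the 10 genes and Ifng in the 3 comparisons, each on an axis range of its own, with dotted lines at 2-fold. Red and blue are called higher and lower, grey is not called, and black is not tested; with PI3Kdi, Gbp2 sits at 3.70, the other GTPases between 0.59 and 1.47 and Ifng at -6.08.

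Compared with naïve cells, PI3Kdi cells did not return to one level. Irgm2 averaged 22.2 ± 1.42 FPKM in naive and 22.0 ± 1.70 in PI3Kdi cells, and Irgm1 62.0 ± 5.70 and 80.4 ± 9.50. Gbp9 stood at 69.6 ± 6.90 and 6.35 ± 2.87 FPKM, Ifngr2 at 27.3 ± 0.971 and 3.23 ± 0.391 FPKM, and Gbp2 at 67.5 ± 7.25 and 650.5 ± 167 FPKM. The PI3Kdi mean was above the naive mean for Gbp2, Gbp3, Igtp and Irgm1 and below it for the other genes. This pair of groups was not tested.

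The make-up of the GTPase mRNA was different with the inhibitor. Summed over the 8 GTPases, FPKM came to 367 ± 8.77 in naive, 262 ± 42.7 in TCR and 1090 ± 237 in PI3Kdi cells. Gbp2 was 18.4 ± 2.30% of that sum in naive, 19.4 ± 6.30% in TCR and 59.3 ± 2.72% in PI3Kdi cells. The other 7 together had 299.8 ± 15.0, 209 ± 16.4 and 439 ± 69.8 FPKM. Gbp2 stood at 0.813 ± 0.107 times the FPKM of Igtp in naive, 0.385 ± 0.183 in TCR and 2.30 ± 0.228 in PI3Kdi cells. In CTL, Gbp2 was 17.3 ± 1.77% of a sum of 1049 ± 73.1 FPKM with IL-2 and 14.9 ± 1.28% of 744 ± 43.5 FPKM without.

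**Figure D3:**
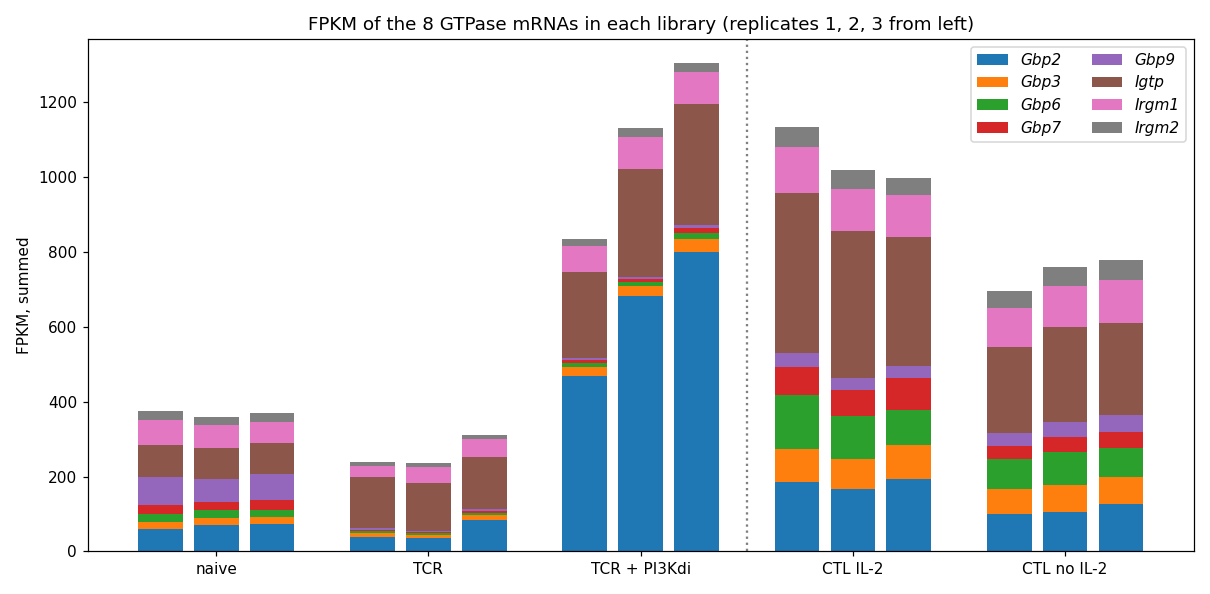
Summed FPKM of the 8 GTPase mRNAs in each of the 15 libraries, stacked by gene, with replicates 1, 2 and 3 from the left in each group. The 3 PI3Kdi bars are mostly Gbp2 (59.3% on average), while Gbp2 is 14.9% to 19.4% on average in the other 4 groups. Igtp is the largest piece in the naive, TCR and CTL bars.

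The same pool stood highest in both activated groups. In TCR cells the pool of replicate 3 had the highest level of all 8 GTPases, and in PI3Kdi cells it again had the highest of all 8, as 19.4% of all genes did in both. In CTL, replicate 3 was the highest of both groups for 3 of the 8, against 14.1% of all genes. This pattern was looked for after the values were seen, and the receptor genes did not show it.

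Removal of IL-2 from CTL for 24 h lowered part of the GTPase group and raised both receptor chains. By limma, 5 of the 8 GTPases had an adjusted p under 0.05 and a lower level (Gbp2, Gbp3, Gbp6, Gbp7 and Igtp), all by less than 2-fold. Gbp9, Ifngr1 and Ifngr2 had an adjusted p under 0.05 and a higher level, and Irgm1 and Irgm2 did not pass. Over all genes 71.9% passed that test in either direction, and the 8 of 10 here are near that share. With the 2-fold limit only Ifngr1 was called, higher, and none was called lower, against 14.3% and 13.9% of all genes. Ifng had 16.3, 18.8 and 28.9 FPKM with IL-2 and 0.81, 0.97 and 0.51 FPKM without, and was called lower (log2 change -4.63, adjusted p = 5.7e-07).

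Gbp2 had 185, 166 and 193 FPKM in CTL with IL-2 and 101, 105 and 127 FPKM without, a log2 change of -0.71 ± 0.10 (adjusted p = 1.9e-04). Gbp7 had 74.9, 70.0 and 84.0 FPKM with and 33.4, 39.0 and 43.3 FPKM without, a log2 change of -0.99 ± 0.11 (adjusted p = 3.4e-05). Gbp7 was thus just under the 2-fold limit, and without replicate 2 it was called at -1.06. Igtp had 428, 395 and 344 FPKM with and 228, 252 and 245 FPKM without, a log2 change of -0.68 ± 0.10 (adjusted p = 1.5e-04). The groups of these 3 genes did not overlap.

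Smaller falls were seen in Gbp3, with 89.6, 82.0 and 89.7 FPKM with and 66.9, 71.0 and 72.2 FPKM without IL-2 (log2 change -0.31 ± 0.07, adjusted p = 0.0039). Gbp6 had 144, 113 and 95.1 FPKM with and 80.1, 90.2 and 77.02 FPKM without (-0.49 ± 0.14, adjusted p = 0.0098; -0.31 without replicate 1). Gbp9 had 36.2, 31.1 and 33.5 FPKM with and 35.5, 41.0 and 45.1 FPKM without. Its groups overlapped, its log2 change was 0.27 ± 0.10 (adjusted p = 0.042), and without replicates 1, 2 and 3 the adjusted p was 0.0061, 0.27 and 0.20. Irgm1 had 124, 112 and 111 FPKM with and 105, 109.7 and 116 FPKM without (-0.07 ± 0.08, adjusted p = 0.42). Irgm2 had 51.8, 49.5 and 45.5 FPKM with and 45.6, 51.1 and 52.6 FPKM without (0.02 ± 0.09, adjusted p = 0.81). The adjacent genes Igtp and Irgm2 therefore stood apart in CTL, as they did on TCR activation, although no test of the difference between them was run.

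Ifngr1 had 158, 139.6 and 143 FPKM with IL-2 and 284, 293 and 325 FPKM without, a log2 change of 1.03 ± 0.08 (adjusted p = 4.8e-06). Ifngr2 had 5.09, 5.48 and 4.76 FPKM with and 8.51, 7.67 and 12.95 FPKM without, a log2 change of 0.88 ± 0.18 (adjusted p = 0.0018). Every library without IL-2 was above every library with it in both genes. Without replicate 3 the Ifngr1 change was 0.96 and no longer called, and without replicate 2 Ifngr2 was called at 1.08. Ifngr1 was 28.8 ± 2.94 times Ifngr2 with IL-2 and 32.2 ± 6.61 times without. Groups did not overlap for 7 of the 10 genes, against 76.1% of all genes.

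Genes listed as markers of other cells also differed between the CTL groups. Itgam and Cd68, the listed 2 of 11 myeloid and dendritic cell markers, summed to 5.36 to 9.34 FPKM with IL-2 and 9.99 to 16.9 FPKM without; Itgam was called higher and the Cd68 groups overlapped. Cd4 and Klrb1c, the listed 2 of 4 CD4 T and NK cell markers, summed to 1.59 to 2.13 FPKM and 4.01 to 4.33 FPKM, and Pecam1, the listed 1 of 4 stromal and endothelial markers, had 22.5 to 30.5 FPKM and 50.3 to 62.4 FPKM. Cd79b, the listed 1 of 6 B cell markers, had 2.74 to 6.30 FPKM with and 10.8 to 20.6 FPKM without, while Ms4a1 and Cd79a were not among the listed genes. In naive cells, which were sorted as CD8+, Pecam1 had 55.6 to 66.0 FPKM and Cd79b had 19.6 to 21.8 FPKM. Both were thus also measured in sorted CD8+ cells. The part of these marker genes in the receptor and GTPase changes was not tested.

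Across the 5 groups Gbp2 was highest in PI3Kdi cells (650.5 ± 167 FPKM), followed by CTL with IL-2 (181 ± 14), CTL without IL-2 (111 ± 14.1), naive (67.5 ± 7.25) and TCR cells (52.6 ± 26.3). Only naive and TCR cells overlapped among these neighbours. No other family member was highest in PI3Kdi cells. Gbp3, Gbp6, Gbp7, Igtp and Irgm1 had their highest mean in CTL with IL-2 (87.1 ± 4.43, 117 ± 24.6, 76.3 ± 7.09, 389 ± 42.0 and 116 ± 6.96 FPKM), though Irgm1 and CTL without IL-2 (110.1 ± 5.46) overlapped. Irgm2 was highest in CTL without IL-2 (49.8 ± 3.71 FPKM), which overlapped CTL with IL-2 (48.9 ± 3.18). Gbp9 and Ifngr2 were highest in naive cells and Ifngr1 in CTL without IL-2 (300.5 ± 21.6 FPKM).

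A further 15 interferon-inducible GTPases were examined, of which 13 were in the first table; the list was written with earlier results of these data known. With the inhibitor 9 of the 13 were called higher and 0 lower, against 3.04% and 2.10% of all genes, with a median log2 change of 1.35 beside -0.01 over all genes. They were Gbp4, Gbp5, Gbp8, Gbp11, Iigp1, Ifi47, Tgtp1, Tgtp2 and Gm12250, the gene of IRGB10. Sharing of sequence within this list was not measured, so the 9 need not be separate measurements. Iigp1, an effector IRG protein, had 5.91, 7.57 and 13.5 FPKM in TCR and 28.7, 32.9 and 39.9 FPKM in PI3Kdi cells (log2 change 1.97 ± 0.25, adjusted p = 0.00039). Ifi47, also an IRG, had 42.3, 69.2 and 83.4 FPKM in TCR and 147, 188 and 220.0 FPKM in PI3Kdi cells (1.54 ± 0.23, adjusted p = 0.0012). Gbp5, which promotes inflammasome assembly, had 28.8, 19.2 and 26.3 FPKM and then 48.7, 64.6 and 88.1 FPKM (1.41 ± 0.22, adjusted p = 0.0013).

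All 9 had log2 changes of 1.14 to 1.97, below the 3.70 of Gbp2. Gbp11 was near the floor, with 0.05, 0 and 0.46 FPKM in TCR and 0.30, 0.66 and 1.41 FPKM in PI3Kdi cells. The Gbp11 groups overlapped, and its log2 change was 1.92 ± 0.60 (adjusted p = 0.049). With a pseudocount of 1 or 0.01, 8 were called higher. Gbp10 and Gm4951 did not pass (0.70 and 0.91), nor did Mx1 and Mx2, the antiviral dynamin-like GTPases, which stood at -0.80 and -0.98. Without replicate 2 the count called higher was 3, namely Gm12250, Ifi47 and Iigp1, although the log2 changes of the other 6 then remained between 0.95 and 1.42. On TCR activation 9 of the 13 were called lower, among them Gbp8 (43.0 ± 4.56 to 1.74 ± 0.671 FPKM), and Gbp5 and Gm4951 were called higher, against 23.7% and 25.0% of all genes. On removal of IL-2, 6 of the 12 in the CTL table were called lower and 0 higher, against 13.9% and 14.3% of all genes. These were Gbp4 (212 ± 19.2 to 79.2 ± 3.87 FPKM), Iigp1 (118 ± 27.5 to 28.6 ± 8.83 FPKM), Gm12250, Gbp11, Gm4951 and Mx1, with a list median of -0.84 beside -0.40 for the 8 family members.

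Genes that signal between receptor and target changed by under 2-fold with the inhibitor, where they passed the test at all. Of 14 tested genes (Ifng left out), 0 were called in either direction, near the 3.04% and 2.10% of all genes, with a median log2 change of 0.17. At under 2-fold 4 of the 14 passed the test higher and 1 lower, against 9.35% and 8.19% of all genes, and Jak1 was among those higher (0.31 ± 0.08, adjusted p = 0.024). Irf1 had 34.4, 33.4 and 39.4 FPKM in TCR and 50.2, 60.0 and 61.7 FPKM in PI3Kdi cells (0.68 ± 0.11, adjusted p = 0.0016). Irf2, a relative of Irf1 that can repress the same elements, gave 0.60 ± 0.13 (adjusted p = 0.010). Irf8, which binds ISRE together with partner factors, was lower, with 378, 427 and 377 FPKM and then 211, 240.5 and 174 FPKM (-0.93 ± 0.16, adjusted p = 0.0023).

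On TCR activation 7 of the 15 signalling genes were called lower and 2 higher, against 23.7% and 25.0% of all genes, and those lower included Jak1 (275 ± 3.96 to 54.8 ± 4.62 FPKM) and Irf1 (97.0 ± 8.97 to 35.7 ± 3.21 FPKM). The 2 higher were Ifng and Irf8 (1.55 ± 0.337 to 394 ± 28.8 FPKM). On removal of IL-2, Jak1 (110.3 ± 5.16 to 267 ± 64.2 FPKM) and Irf9 (21.4 ± 1.32 to 46.9 ± 5.71 FPKM) were called higher. Ifng, Irf8 (114 ± 19.2 to 9.57 ± 0.562 FPKM) and Socs1, the feedback inhibitor of the JAK kinases (84.1 ± 13.04 to 21.4 ± 3.92 FPKM), were called lower. These 2 of 15 higher and 3 of 15 lower are near the 14.3% and 13.9% of all genes. Irf1 did not pass there (0.05 ± 0.07, adjusted p = 0.59).

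Other interferon targets were not called higher with the inhibitor, and a few were called lower. Over all genes 3.04% were called higher and 2.10% lower. Of 16 other genes known to be induced by interferon gamma, 0 were called higher and 1 was called lower, with a median log2 change of 0.18. Without the 2-fold limit 5 of the 16 passed the test higher and 2 lower, against 9.35% and 8.19% of all genes, and those higher included Nlrc5, an activator of MHC class I genes (0.63 ± 0.12, adjusted p = 0.0058), and Tapbp, a peptide-loading chaperone (0.77 ± 0.23, adjusted p = 0.042). The 1 was the chemokine Cxcl10 (9.42 ± 7.27 to 2.37 ± 2.56 FPKM, adjusted p = 0.048), whose groups overlapped. Of 18 genes that answer chiefly to type I interferon, 0 were called higher and 3 were called lower, with a median of -0.61. Without the limit 2 passed higher, of which Zbp1, a nucleic acid sensor, had 0.84 ± 0.15 (adjusted p = 0.0036), and 4 passed lower. The 3 called were Isg15 (5.28 ± 3.37 to 1.74 ± 0.889 FPKM, adjusted p = 0.043), Oas1a (0.673 ± 0.141 to 0.200 ± 0.0755 FPKM, adjusted p = 0.0037) and Oasl1 (0.240 ± 0.102 to 0.0333 ± 0.0351 FPKM, adjusted p = 0.0072). Oas1a and Oasl1 were near the floor, where the pseudocount of 0.1 weighs on the fold change. On TCR activation 17 of the 18 type I genes were called lower, with a median of -3.96, and 6 of the 16 interferon gamma genes were called lower and 3 higher, against 23.7% and 25.0% of all genes. On removal of IL-2, 4 of 17 type I genes were called higher and 3 lower, and 2 of 17 interferon gamma genes were called lower and 0 higher; over all genes 14.3% were called higher and 13.9% lower, and both counts called lower are near that share. These lists were also written with earlier results known.

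**Figure D4:**
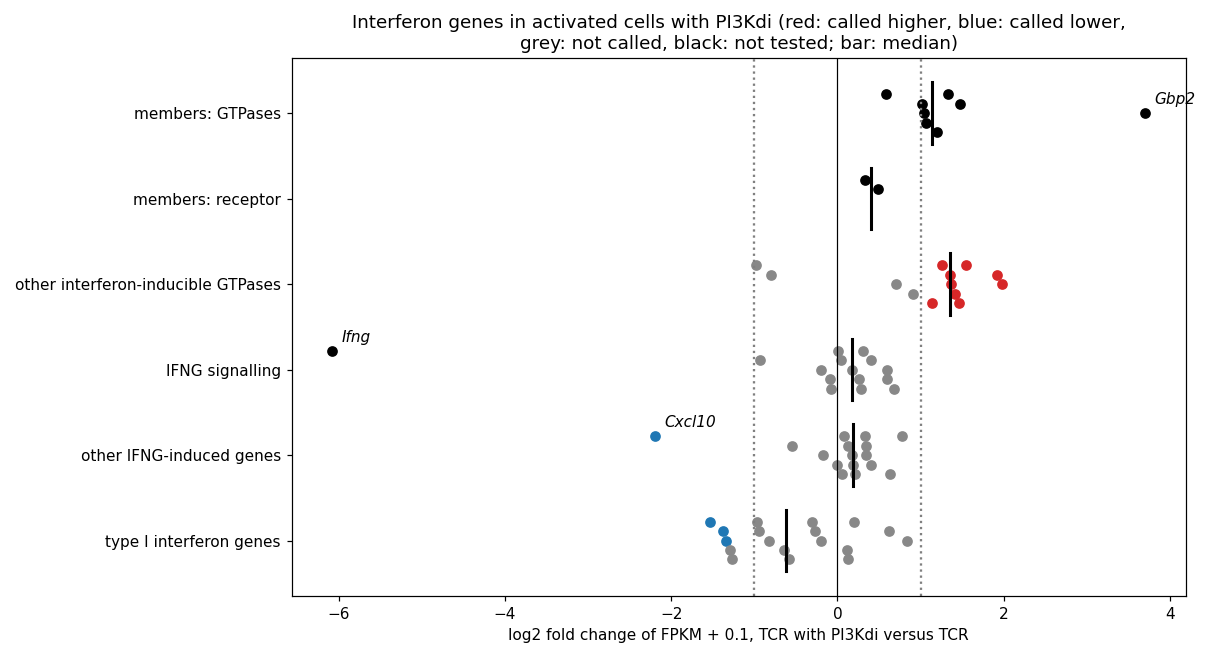
Log2 fold change of FPKM + 0.1 between PI3Kdi and TCR cells for each gene of 6 interferon lists (points), with the list median (bar) and dotted lines at 2-fold. Red and blue are called higher and lower, grey not called and black not tested; the medians are 1.13 for the 8 GTPases and 1.35 for the other GTPases, and 0.17, 0.18 and -0.61 for the signalling, other interferon gamma and type I lists.

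The ISRE core was also searched in these lists. It was found in 5 of the 6 other GTPases with a promoter window, namely Gbp2b, Gbp5, Gm12250, Tgtp1 and Tgtp2. Of these, Gbp2b was not among the measured genes. The core was found in 9 of 16 type I genes, 3 of 13 other interferon gamma genes and 2 of 13 signalling genes.

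Of the 5 listed of 6 B cell markers, 3 were called lower with the inhibitor, Cd79a did not pass, and Cd79b, the main part of the sum, had 3.02 ± 0.451 FPKM in TCR and 3.29 ± 0.490 FPKM in PI3Kdi cells. The 5 summed to 4.92 to 7.82 FPKM and 3.33 to 4.63 FPKM, and Pax5 was not listed. Pecam1, the listed 1 of 4 stromal and endothelial markers, had 2.25 to 3.49 FPKM and 4.73 to 8.20 FPKM. The part of these in the GTPase differences was not tested.

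Likeness to Gbp2 was measured as the root mean square difference between log2 profiles centred on their own means. Over the 9 libraries of naïve and TCR activated cells the nearest genes to Gbp2 were Ecm1 (0.341), Nt5e (0.421), Tns4 (0.474), Gm17384 (0.550) and Rragd (0.590). Ecm1, an extracellular matrix protein gene, had 3.62, 2.13 and 3.50 FPKM in TCR and 23.8, 42.3 and 37.6 FPKM in PI3Kdi cells. Nt5e, the gene of the ecto-5′-nucleotidase CD73, had 0.45, 0.33 and 0.45 FPKM and then 4.39, 5.12 and 5.48 FPKM. The nearest relative was Igtp, at a difference of 1.14 and rank 46 of 11261 genes. Over the 6 CTL libraries the nearest were Dnajc25 (0.043), Ndfip2 (0.063), Wnk1 (0.063), Snai3 (0.067) and Cops7b (0.067), and the nearest relative was Gbp7 (0.149, rank 396 of 11210).

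Other members of the family were closer to each other than to Gbp2 in the first table. Irgm1 and Irgm2 differed by 0.240, which placed Irgm2 at rank 7 from Irgm1. Gbp3 and Irgm2 differed by 0.268, with Irgm2 again at rank 7 from Gbp3. Gbp6 and Gbp7 differed by 0.323, with Gbp7 at rank 56 from Gbp6. Gbp9 and Ifngr2 differed by 0.482, with Ifngr2 at rank 136 from Gbp9. The nearest members of Ifngr1 and Igtp were not close to them. Gbp6 was at rank 2249 from Ifngr1 (0.497) and Gbp3 at rank 3571 from Igtp (0.680). The root mean square of the centred Igtp profile itself was 0.724. In CTL, Irgm1 and Irgm2 were again each other's nearest member (0.065). Both were nearly flat there, with centred profiles of root mean square 0.074 and 0.084. Ifngr1 and Ifngr2 differed by 0.211, with Ifngr2 at rank 1088 from Ifngr1 and Ifngr1 at rank 300 from Ifngr2. These values describe 9 libraries that share pools and 6 whose pairing is not known, each set normalised together.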

How the data were processed

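Poly(A) RNA of 15 libraries was measured with the TruSeq Stranded kit and 75 base paired reads. Per the labels and methods, the authors aligned reads to mm10 (STAR 2.5.2b), counted RefSeq exons (Subread 1.5.1), filtered low genes, applied TMM in edgeR and deposited FPKM per gene; use of strand was not given in the sources used here, and for CTL only the tools are named. Blank cells were read as 0. FPKM are not counts, so log2(FPKM + 0.1) was fitted with limma 3.58.1 (R 4.3.3, variance trend, Benjamini-Hochberg over each table), 1 fit per table, and the script was tested on simulated data. CTL replicates are labelled biological, without saying whether mice or cultures differed, so their p-values measure the spread between these samples.

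The family and lists were chosen with earlier results of these data known. All 10 genes are named, list genes where called, and the 5 nearest to Gbp2. Numbers 1 to 3 mark shared pools in the first table. CTL samples of the same number correlated weakly in their deviations over 10263 genes (r = 0.123, 0.166 and 0.257). For the shared pools this measure averaged 0.328 between TCR and PI3Kdi cells. It averaged -0.032 between naive and TCR cells and -0.001 between naive and PI3Kdi cells. It therefore cannot decide whether the CTL samples are paired. Alternatives changed the pseudocount, filter, scaling, trend, block, groups fitted, fold limit and replicates. Promoters are RefSeq's, with motifs counted in Python 3.11.15. Some genes of these lists are counted but not reported by name here.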

Additional observations from a re-analysis of the deposited data

How the results depend on the processing

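With a fold limit of 1.5, or none, 1 of the 10 genes was called higher on TCR activation (Igtp). On removal of IL-2, the count called higher was 2 with a fold limit of 1.5 and 3 with none, and the count called lower 3 and 5. Leaving out 1 replicate at a time gave 0 to 2 called higher and 0 to 1 called lower there, since Ifngr1 fell under 2-fold without replicate 3 and Gbp7 passed it without replicate 2 or 3. It gave 3 to 9 of the other GTPases called higher with PI3Kdi; this list's alternatives were chosen after seeing the data. On removal of IL-2, leaving out 1 replicate put Irgm1 between -0.137 and 0.0112 and Irgm2 between -0.0689 and 0.128, never past the test. Irgm2 on TCR activation was just under 2-fold with a pseudocount of 1 (-0.97) and with median scaling (-0.95). Fitting the replicate number as a block changed no call: 6 genes called lower on TCR activation, 1 higher in CTL. With PI3Kdi, Gbp2 stayed at 3.43 to 3.92 over 10 alternatives, and 5 to 7 of the 10 genes were past 2-fold. Depth is unknown, which leaves the counting error of the lowest gene, Ifngr2, unmeasured.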
